A study of Sus scrofa with 16 samples.

Results

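Prostanoids are lipid signals that cells make from arachidonic acid and that act on neighbouring cells through G protein-coupled receptors. Arachidonic acid is cut from membrane lipids by phospholipases, and the cyclooxygenases PTGS1 and PTGS2 turn it into an unstable endoperoxide. Terminal synthases then make prostaglandin E (PTGES) or prostacyclin (PTGIS) from it. The receptors PTGER2 and PTGER4 for prostaglandin E and PTGIR for prostacyclin raise cyclic AMP, PTGER3 lowers it, and the prostaglandin F receptor PTGFR signals through calcium. HPGD oxidises prostaglandins to inactive forms. In many tissues PTGS1 is made at rest, whereas PTGS2 is induced by cytokines and growth factors. The prostanoid enzymes and receptors described here are these 10 genes, taken by name from a count table of 29552 named genes. All 10 had a row.

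The libraries came from interstitial cells of aortic valve leaflets, which are fibroblasts that maintain the leaflet matrix, taken from female and male pigs aged 5 to 6 months. Each of 4 groups held 4 libraries: female cells on tissue culture plastic, female cells on a PEG-norbornene hydrogel with an elastic modulus of about 5.8 kPa, male cells on plastic and male cells on the hydrogel. All cells spent 48 h in Media 199 with 1% fetal bovine serum, penicillin, streptomycin and amphotericin B. The submitters took cells on plastic to be myofibroblasts and cells on gel to be quiescent fibroblasts. The modulus of the plastic is not stated, and the surfaces also differ in material. The series lists 4 female and 4 male biological replicates for the 16 samples, and does not state that equal numbers are 1 animal or whether animals were pooled.

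Total counts ran from 16.9 to 27.4 M reads assigned to named genes, lowest in male gel 2. The 12 valve fibroblast markers, such as COL1A1 and VIM, were all tested. Their summed level was 82947 to 96814 CPM (reads per 1e+06 assigned reads) in female plastic, 56611 to 68934 in female gel, 87813 to 99261 in male plastic and 61790 to 67919 in male gel. The members did not move together. In the test described below, 3 of the 12 were called higher and 4 lower on plastic in female cells, and 5 and 4 in male cells. ACTA2 had 11871 to 23140 CPM in female plastic and 2271 to 5837 in female gel. PDGFRA went the other way, with 261 to 312 CPM in female plastic and 1096 to 1682 in female gel. Of 17 leukocyte markers 4 had enough reads to be tested, 4 had no read in any library, and PTPRC, which defines leukocytes, had at most 0.035 CPM. LAPTM5 and CD14 had more, up to 33.7 CPM (female plastic 1) and 11.3 CPM (male gel 1). Of the 4 tested, 1 was called higher and 1 lower on plastic in each sex. Of 11 listed mast cell and platelet markers 3 were tested, and 1 was called higher on plastic in each sex. KIT, of that list, had 83.7 to 268 CPM. The 17 endothelial markers summed to 260 to 661 CPM in female plastic and 219 to 341 in female gel. They summed to 254 to 382 CPM in male plastic and 192 to 303 in male gel. Of these markers, ERG alone had 92.8 to 252 CPM, whereas VWF, KDR and CLDN5 had at most 4.17, 2.22 and 2.53 CPM. PECAM1 and CDH5 were highest in female plastic 1, with 124 and 174 CPM. The 12 listed smooth muscle and pericyte markers summed to 1679 to 3467 CPM in female plastic, 412 to 588 in female gel, 2443 to 3167 in male plastic and 407 to 582.3 in male gel. Among these, CNN1 had 520 to 930 CPM in female plastic and 89.1 to 224 in female gel. ABCC9 went the other way, with 1.14 to 3.27 CPM in female plastic and 5.25 to 8.66 in female gel. RGS5 had at most 0.145 CPM. In the test described below, 8 of the 11 tested were higher on plastic and 2 lower in each sex. Of all tested genes, 12.7% were higher and 11.3% lower in female cells, and 12.9% each in male cells. The part of these cell type markers in the results was not tested. The Y-linked gene EIF1AY had 167 to 282 reads in male plastic and 264 to 472 in male gel, and 0 in every female library.

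Levels are CPM scaled with TMM factors. Changes are log2 values with standard errors (SE) from edgeR's quasi-likelihood test, and a gene was called where its adjusted p (Benjamini-Hochberg, over the 14530 genes tested) was under 0.05. Of the 10 genes, 9 had enough reads to be tested. PTGER3 did not.

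The first comparison was plastic against gel. In female cells 4 of the 9 tested genes fell on plastic and 0 rose, where 23.9% of all tested genes were called, 11.3% lower and 12.7% higher. In male cells the same 4 fell and 0 rose, where 25.8% of all tested genes were called, 12.9% lower and 12.9% higher. The 4 were the cyclooxygenase PTGS1, the prostaglandin E synthase PTGES, the prostaglandin F receptor PTGFR and the prostacyclin receptor PTGIR. The inducible cyclooxygenase PTGS2, the prostacyclin synthase PTGIS and the receptors PTGER2 and PTGER4 were not called in either sex. The median log2 change of the 9 was -1.74 in female and -0.82 in male cells, against -0.04 and -0.03 over all tested genes. The male median was the value of the sparsely read HPGD, and it was -0.51 without male gel 2 and -1.27 without male plastic 3. Over the other 8 genes the medians were -1.11 in female and -1.14 in male cells. In bulk RNA, fewer cells that express a gene and less of its RNA per cell cannot be told apart.

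**Figure D1:**
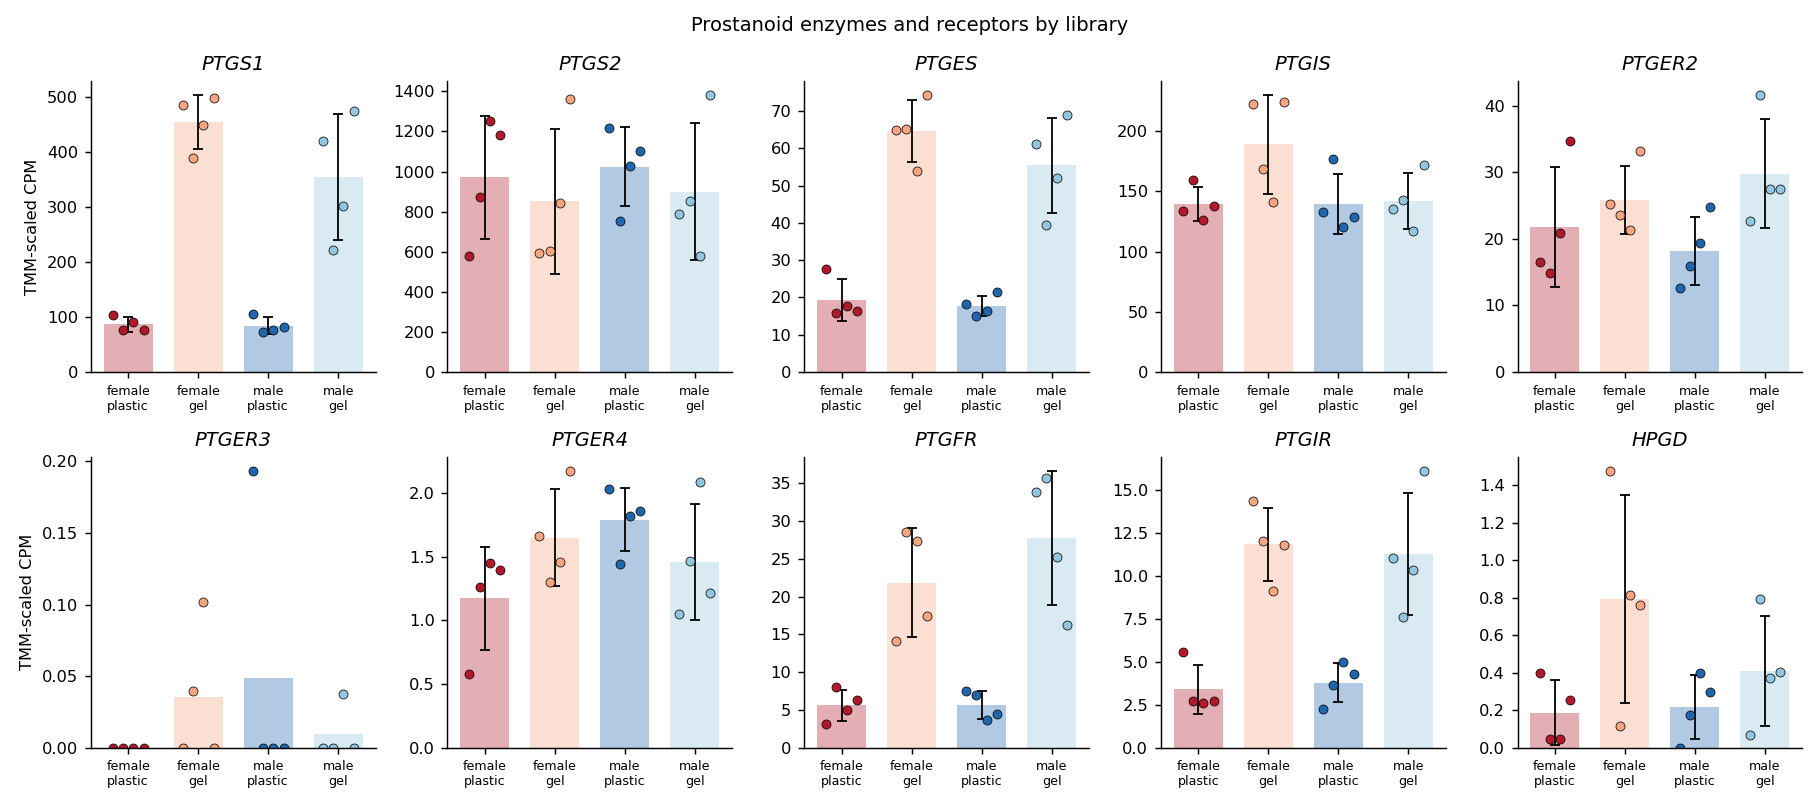
Level of each of the 10 genes in TMM-scaled CPM (vertical axes start at 0). Points are libraries in replicate order, bars are means and error bars SD, with n = 4 per group and no error bar for PTGER3. Plastic lies below gel without overlap for PTGS1, PTGES, PTGFR and PTGIR in both sexes, while the groups overlap for PTGS2, PTGIS, PTGER2, PTGER4 and HPGD.

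PTGS1 (chromosome 1, 262456106 to 262482159, Sscrofa11.1) codes for the cyclooxygenase that many resting cells carry. Its level was 104, 76.3, 90.2 and 75.8 CPM in female plastic 1 to 4, against 486, 389, 449 and 498 CPM in female gel 1 to 4. It was 106, 72.7, 76.1 and 82.6 CPM in male plastic 1 to 4, against 420, 222, 302 and 475 CPM in male gel 1 to 4. Every plastic library lay below every gel library of its sex, and male gel 2 was the lowest of the gel libraries. PTGS1 fell by 2.40 on the log2 scale in female cells (SE 0.20, edgeR adjusted p = 6.41e-07), a 5.26-fold lower level. In male cells it fell by 2.07 (SE 0.20, edgeR adjusted p = 2.25e-06), a 4.2-fold lower level. Without male gel 2 the male change was -2.24.

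PTGS2 (chromosome 9, 127850164 to 127858866) codes for the cyclooxygenase that inflammatory signals induce. Its level was 580, 872, 1250 and 1182 CPM in female plastic 1 to 4 and 596, 602, 842 and 1363 CPM in female gel 1 to 4. It was 1216, 752, 1026 and 1101 CPM in male plastic 1 to 4 and 787, 852, 578 and 1382 CPM in male gel 1 to 4. The groups overlapped over most of their range, and the highest gel library of each sex was number 4. The log2 change was 0.19 in female cells (95% interval -0.45 to 0.83, edgeR adjusted p = 0.691) and 0.19 in male cells (-0.45 to 0.82, edgeR adjusted p = 0.696). The intervals leave room for changes up to those bounds but not for a fall of the size seen in PTGS1. In each sex, 2 of 4 replicate numbers were higher on plastic and 2 lower. The change was 0.51 in female cells without female gel 4 and 0.47 in male cells without male gel 4, not called in either case (edgeR adjusted p = 0.236 and 0.268). Other single libraries brought it down to 0.05 (without female plastic 3) and 0.02 (without male gel 3).

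The unequal change of the cyclooxygenases can be read within each library, free of any scaling between libraries. Per 100 PTGS2 reads there were 10.1 ± 5.32 PTGS1 reads in female plastic and 59.0 ± 19.0 in female gel (SD, n = 4 each). The counts were 8.33 ± 1.07 in male plastic and 41.5 ± 13.5 in male gel (SD, n = 4 each). The highest plastic library had 17.9 in female and 9.66 in male cells, and the lowest gel library 36.5 and 26.1, so the surfaces did not overlap. The mean log2 ratio was lower on plastic by a difference of -2.62 in female and -2.26 in male cells. An exact two-sided permutation test gave p = 0.0286 in each sex, the smallest that 4 against 4 libraries allow, and 0.0762 after Benjamini-Hochberg adjustment over the 16 ratio comparisons made. This test ignores the pairing by number. With exchange only within the 4 pairs of a sex, p was 0.125 in each sex, the smallest that 4 pairs allow, and all 4 pairs were lower on plastic.

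PTGES (chromosome 1, 269911785 to 269924481) codes for the membrane-bound prostaglandin E synthase, which in many cells is induced together with PTGS2. It had 27.7, 15.9, 17.8 and 16.2 CPM in female plastic 1 to 4, against 64.8, 65.3, 53.9 and 74.4 CPM in female gel 1 to 4. It had 18.2, 15.01, 16.5 and 21.4 CPM in male plastic 1 to 4, against 61.1, 39.4, 52.1 and 69.1 CPM in male gel 1 to 4. No plastic library reached the lowest gel library of its sex, and female plastic 1 was the highest plastic library. PTGES fell, with a log2 change of -1.74 in female cells (SE 0.20, edgeR adjusted p = 9.57e-06) and -1.64 in male cells (SE 0.20, edgeR adjusted p = 1.51e-05).

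PTGIS (chromosome 17, 51153151 to 51200515) codes for prostacyclin synthase, known from vessel walls, and a pseudogene overlaps its locus over 3016 bases. It had 134, 160, 127 and 138 CPM in female plastic 1 to 4 and 222, 169, 141 and 224 CPM in female gel 1 to 4. It had 133, 177, 120 and 129 CPM in male plastic 1 to 4 and 135, 143, 117 and 172 CPM in male gel 1 to 4. Female gel 1 and 4 stood above all other libraries, and the groups of each sex overlapped. Its log2 change was -0.44 in female cells (SE 0.16, edgeR adjusted p = 0.0575) and -0.02 in male cells (SE 0.16, edgeR adjusted p = 0.938). With the replicate number as a block the female change was called (-0.42, edgeR adjusted p = 0.0412). It was also called without female gel 3 (-0.56, adjusted p = 0.0192), male plastic 2 (adjusted p = 0.0448) or male gel 4 (adjusted p = 0.0477). Without female 1, female 4 and male 4, which have the highest CDH5 on plastic, an endothelial gene, it was -0.10 (adjusted p = 0.815). That fit kept female numbers 2 and 3 only and left out female gel 1 and 4, the libraries highest in PTGIS. A smaller female change follows from that choice, and the part of endothelial cells was not tested.

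The balance of the terminal synthases was likewise compared within libraries. Per 100 PTGIS reads there were 14.1 ± 4.72 PTGES reads in female plastic and 34.8 ± 4.52 in female gel, and 13.1 ± 3.36 in male plastic and 39.3 ± 8.16 in male gel (SD, n = 4 each). The surfaces did not overlap in either sex (exact permutation p = 0.0286, adjusted 0.0762). PTGES reads per 100 PTGS2 reads were 2.35 ± 1.63 in female plastic and 8.40 ± 2.88 in female gel, and 1.76 ± 0.246 in male plastic and 6.60 ± 2.13 in male gel, again without overlap (exact permutation p = 0.0286, adjusted 0.0762, n = 4 each). For PTGIS per 100 PTGS2 the surfaces overlapped, with 15.8 ± 6.00 in female plastic and 24.6 ± 10.02 in female gel, and 14.5 ± 6.01 in male plastic and 16.7 ± 3.20 in male gel (exact permutation p = 0.171 and 0.4, adjusted 0.343 and 0.582, n = 4 each).

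**Figure D2:**
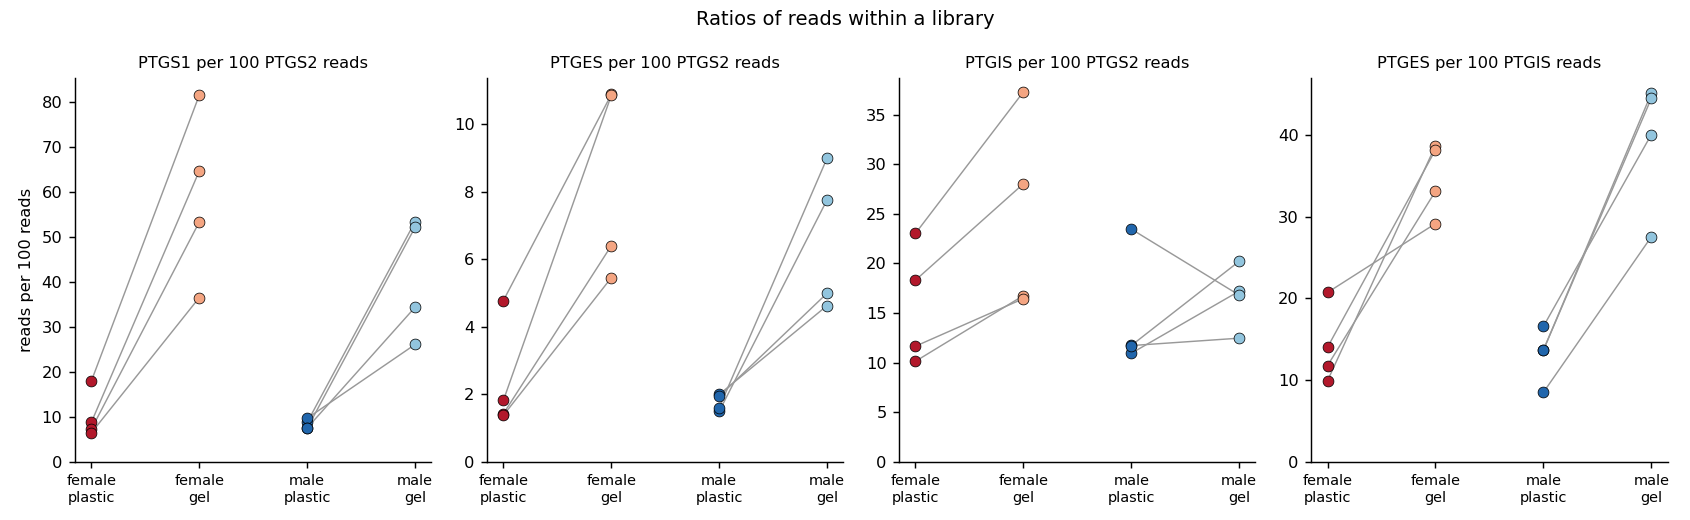
Reads of the first gene per 100 reads of the second in the same library, on axes that start at 0. Points are libraries, and lines join libraries with the same sex and replicate number. PTGS1 and PTGES stand lower against PTGS2, and PTGES lower against PTGIS, in all 4 plastic libraries of each sex than in any gel library of that sex.

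Among the receptors, PTGFR (chromosome 6, 134727334 to 134777067), which binds prostaglandin F, had 3.15, 7.997, 4.97 and 6.29 CPM in female plastic 1 to 4, against 14.1, 28.6, 27.3 and 17.4 CPM in female gel 1 to 4. It had 7.45, 6.96, 3.73 and 4.48 CPM in male plastic 1 to 4, against 33.8, 35.7, 25.3 and 16.2 CPM in male gel 1 to 4. No plastic library reached the lowest gel library of its sex, and male gel 4 was the lowest of the male gel libraries. PTGFR fell, with log2 changes of -1.96 in female cells (SE 0.33, edgeR adjusted p = 0.000325) and -2.30 in male cells (SE 0.33, edgeR adjusted p = 7.88e-05).

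PTGIR (chromosome 6, 52522639 to 52527338), the prostacyclin receptor, had 5.55, 2.71, 2.60 and 2.70 CPM in female plastic 1 to 4, against 14.3, 12.01, 9.14 and 11.8 CPM in female gel 1 to 4. It had 2.27, 3.63, 4.97 and 4.27 CPM in male plastic 1 to 4, against 11.05, 7.62, 10.3 and 16.1 CPM in male gel 1 to 4. Female plastic 1 stood apart from the other female plastic libraries, and the surfaces did not overlap. PTGIR fell, with a log2 change of -1.80 in female cells (SE 0.29, edgeR adjusted p = 0.000272) and -1.57 in male cells (SE 0.29, edgeR adjusted p = 0.000769). Non-overlap of all 4 plastic libraries below all 4 gel libraries held for PTGS1, PTGES, PTGFR and PTGIR in each sex, as it did for 14% of all tested genes in each sex.

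PTGER2 (chromosome 1, 181993961 to 182009959), a prostaglandin E receptor that raises cyclic AMP, had 16.5, 14.9, 20.9 and 34.7 CPM in female plastic 1 to 4 and 25.2, 23.6, 21.3 and 33.2 CPM in female gel 1 to 4. It had 12.7, 16.0, 19.3 and 24.7 CPM in male plastic 1 to 4 and 22.7, 41.6, 27.5 and 27.4 CPM in male gel 1 to 4. The groups overlapped, although each of the 4 male numbers was lower on plastic than on gel. Its log2 change was -0.25 in female cells (SE 0.26, edgeR adjusted p = 0.543) and -0.71 in male cells (SE 0.26, edgeR adjusted p = 0.0593). The female change was -0.10 without female gel 4 or female plastic 2, -0.12 without female plastic 1 and -0.57 without female plastic 4, not called in any of these. The male change was called with the replicate number as a block (-0.72, edgeR adjusted p = 0.0142) and by DESeq2 (-0.70, adjusted p = 0.0377). It was also called without male plastic 4 (-0.89, edgeR adjusted p = 0.0334), male gel 1 (-0.82, adjusted p = 0.0437) or female plastic 4 (adjusted p = 0.0253), and without female 1, female 4 and male 4 (-0.92, adjusted p = 0.019). The annotated PTGER2 locus overlaps that of the prostaglandin D receptor PTGDR over 12415 bases, and reads at such overlaps may be lost or shared.

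PTGER4 (chromosome 16, 25670832 to 25686556), the other prostaglandin E receptor that raises cyclic AMP, was sparse, with 13 to 33 reads a library in female plastic and 33 to 60 in female gel, and 33 to 44 in male plastic and 26 to 56 in male gel. Its mean level was 1.17 ± 0.404 CPM in female plastic and 1.65 ± 0.380 in female gel, and 1.79 ± 0.248 in male plastic and 1.45 ± 0.455 in male gel (SD, n = 4 each). The log2 change was -0.49 in female cells (95% interval -1.14 to 0.16) and 0.30 in male cells (-0.35 to 0.94), with edgeR adjusted p = 0.274 and 0.518. The female change was -0.25 without female plastic 1 and -0.01 without female 1, female 4 and male 4.

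PTGER3 (chromosome 6, 141958955 to 142160437), the prostaglandin E receptor that lowers cyclic AMP, had 0 reads in the 4 female plastic libraries, which allows up to 0.0332 CPM (3 counts over the group, for counting error only). It had 4 reads in female gel, 4 in male plastic (all in male plastic 1) and 1 in male gel. An annotated long noncoding RNA overlaps its locus over 161889 bases, and reads lost or shared there were not tested. HPGD (chromosome 14, 15718261 to 15773534) had 9, 1, 1 and 6 reads in female plastic 1 to 4 and 41, 3, 24 and 21 in female gel 1 to 4. It had 0, 4, 9 and 7 reads in male plastic 1 to 4 and 2, 14, 10 and 9 in male gel 1 to 4. It passed the filter with few reads, its intervals are wide, and a pseudogene overlaps its locus over 2978 bases. The log2 change was -2.06 in female cells (95% interval -3.85 to -0.27, edgeR adjusted p = 0.0906) and -0.82 in male cells (-2.67 to 1.03, edgeR adjusted p = 0.531). The female change was called with the replicate number as a block (-2.11, edgeR adjusted p = 0.0187) and without female gel 2 (-2.41, edgeR adjusted p = 0.0474).

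**Figure D3:**
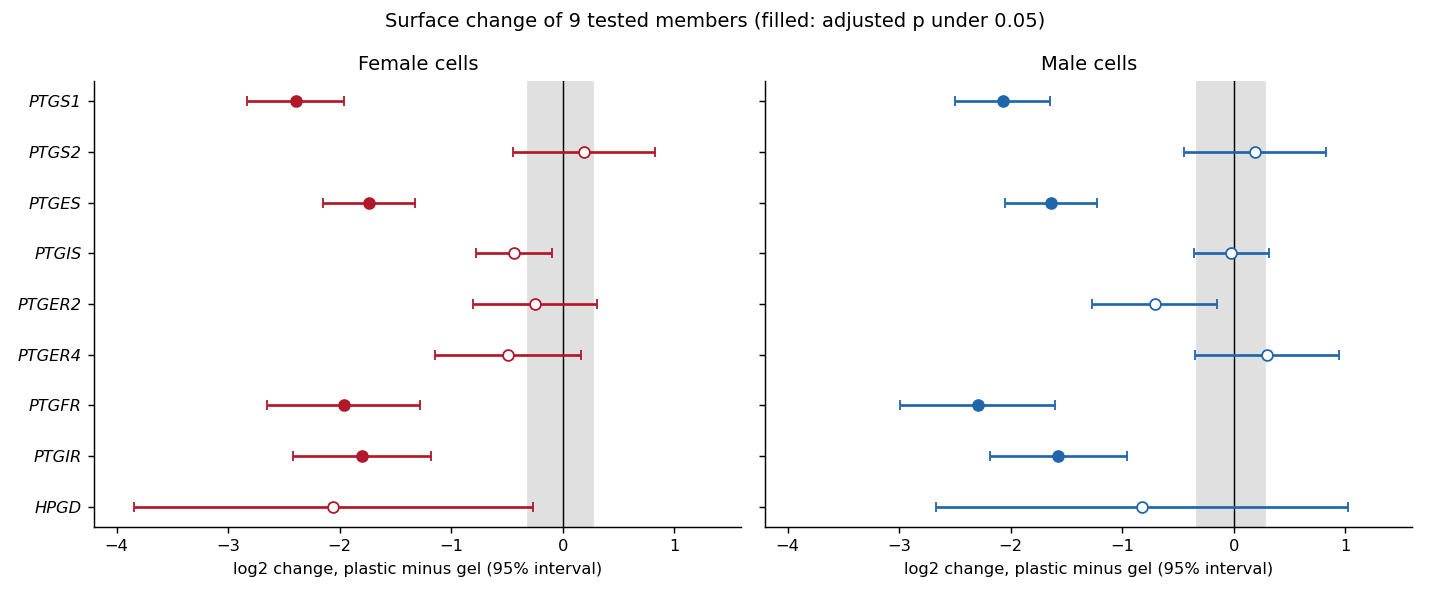
Log2 change of plastic against gel with its 95% interval for the 9 tested genes, in female (left) and male (right) cells. Filled points were called, and the grey band spans the middle 50% of all tested genes. The intervals of PTGS1, PTGES, PTGFR and PTGIR lie wholly below the band, while those of PTGS2 and PTGER4 span 0 in both sexes.

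The second comparison was female against male cells on each surface. None of the 9 tested genes was called on plastic, where 0.124% of all tested genes were, or on gel, where 0.103% were. At an unadjusted p under 0.05 the count was 0 of 9 on plastic (1.95% of all tested genes) and 1 of 9 on gel (3.85%), and DESeq2 and limma-voom also called 0 on both surfaces. The 1 gene was PTGIS on gel, with 189 ± 41.1 CPM in female and 142 ± 23.0 CPM in male cells (SD, n = 4 each), a log2 difference of 0.41 (SE 0.16, edgeR adjusted p = 0.852). PTGS1 on gel had 455 ± 48.8 CPM in female and 355 ± 114 CPM in male cells, a log2 difference of 0.36 (95% interval -0.05 to 0.77, edgeR adjusted p = 0.852). On plastic PTGS1 had 86.6 ± 13.4 CPM in female and 84.4 ± 15.1 CPM in male cells. The widest gap on plastic among the 9 tested genes was that of PTGER4 (log2 -0.61, 95% interval -1.26 to 0.05, edgeR adjusted p = 0.98).

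The difference of the surface changes, female minus male, was not called for any of the 9 genes or for any of the 14530 tested genes (0%). At an unadjusted p under 0.05 there were 0 of 9 and 633 (4.36%) of all tested genes, and DESeq2 called 0 too. The difference was -0.32 for PTGS1 (95% interval -0.90 to 0.26), 0.00 for PTGS2 (-0.90 to 0.90), -0.09 for PTGES (-0.67 to 0.48), and -0.42 for PTGIS (-0.90 to 0.06). For the receptors it was 0.33 for PTGFR (-0.62 to 1.28), -0.23 for PTGIR (-1.08 to 0.63), 0.46 for PTGER2 (-0.32 to 1.25) and -0.79 for PTGER4 (-1.70 to 0.13). The widest interval was that of HPGD, -3.83 to 1.36.

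By level, PTGS1 was highest in female gel, then male gel, then female plastic and then male plastic, and PTGES had that order too. Within each surface the neighbours overlapped. PTGFR was highest in male gel, then female gel, then male plastic and female plastic, with overlap between the sexes on each surface. PTGIR was highest in female gel, then male gel, then male plastic and female plastic, also with overlap within surfaces. For PTGS2 the highest mean was in male plastic, then female plastic, then male gel and female gel, and each neighbouring pair overlapped.

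The other genes of the pathway were taken from lists by role. Of all tested genes, 12.7% rose and 11.3% fell in female cells, and 12.9% rose and 12.9% fell in male cells. Under the alternatives run, the share called was 13.4% to 30.2% in female and 14.9% to 29.7% in male cells. Of 15 tested genes of arachidonate release (23 listed), 1 rose and 6 fell in female cells and 1 rose and 4 fell in male cells, with medians of -0.22 and -0.15. The cytosolic phospholipase PLA2G4A, which feeds the cyclooxygenases, had 273 ± 38.8 CPM in female plastic and 303 ± 67.8 in female gel, and 278 ± 42.8 in male plastic and 308 ± 67.9 in male gel (SD, n = 4 each). It was not called, with log2 changes of -0.15 in each sex (edgeR adjusted p = 0.585 and 0.569). Annexin ANXA1, an inhibitor of phospholipase action, fell, with changes of -1.23 in female and -1.35 in male cells (SE 0.15 each). ACSL4, which loads arachidonate into lipids, fell too, with changes of -0.80 and -1.13 (SE 0.19 each). MGLL, a lipase that frees arachidonate from an endocannabinoid, rose by 1.03 in each sex (SE 0.17). The secreted phospholipase PLA2G12A changed by -0.57 and -0.82 (SE 0.14 each). Without female 1, female 4 and male 4, 2 of the list fell in female cells, where the share of all genes called was then 13.4%. PLA2G12A was then not called in female cells (edgeR adjusted p = 0.0609), with a change of -0.66.

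Of 7 tested further prostanoid synthases (11 listed), 0 were called in either sex by edgeR. The share called over all tested genes was 23.9% in female and 25.8% in male cells. At an unadjusted p under 0.05 there were 4 of 7 in female and 2 of 7 in male cells, where 35.5% and 37.5% of all tested genes were. The list had medians of -0.52 in female and -0.31 in male cells. PTGES2 and PTGES3, the other prostaglandin E synthases, changed by -0.40 and 0.03 in female and by -0.31 and -0.28 in male cells without a call. The count called lower in female cells was 1 without female plastic 2 or 3, female gel 4, male plastic 4 or male gel 1, by DESeq2, in a fit of the female libraries alone and without female 1, female 4 and male 4. It was 3 without male gel 2. In male cells it was 2 without male gel 2, and 1 without male gel 4 or without female 1, female 4 and male 4. With the replicate number as a block it was 2 in each sex. Without male gel 2 the share of all tested genes called either way was 30.2% in female and 24.6% in male cells. With the block that share was 27.6% and 29.7%. Thromboxane synthase TBXAS1 and the prostaglandin D synthase HPGDS had 2 reads each in all 16 libraries.

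Of 5 tested further receptors (7 listed), 1 rose and 0 fell in each sex. Of all tested genes, 12.7% in female and 12.9% in male cells rose. The receptor that rose was TBXA2R, the thromboxane receptor, which contracts smooth muscle and signals through calcium as PTGFR does. TBXA2R had 18.2, 35.6, 32.6 and 16.0 CPM in female plastic 1 to 4, against 2.56, 6.38, 5.03 and 3.77 CPM in female gel 1 to 4. It had 28.4, 29.4, 31.7 and 27.7 CPM in male plastic 1 to 4, against 6.24, 2.99, 4.88 and 2.47 CPM in male gel 1 to 4. Every plastic library stood above every gel library, and female plastic 1 and 4 were the lowest on plastic. The same libraries had the lowest smooth muscle and pericyte sums on plastic, 1679 and 2026 CPM, and the part of these markers in the TBXA2R values was not tested. The log2 change was 2.53 in female cells (SE 0.32, edgeR adjusted p = 3.23e-05) and 2.80 in male cells (SE 0.33, edgeR adjusted p = 1.32e-05), opposite in sign to PTGFR and PTGIR. The prostaglandin D receptors PTGDR and PTGDR2 changed by -0.62 and -0.77 in female and by -0.77 and -0.48 in male cells without a call. PTGER1 had 33 reads and PPARG 3 reads over all 16 libraries. With the replicate number as a block, 2 receptors rose in male cells, where 29.7% of all tested genes were then called either way.

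**Figure D4:**
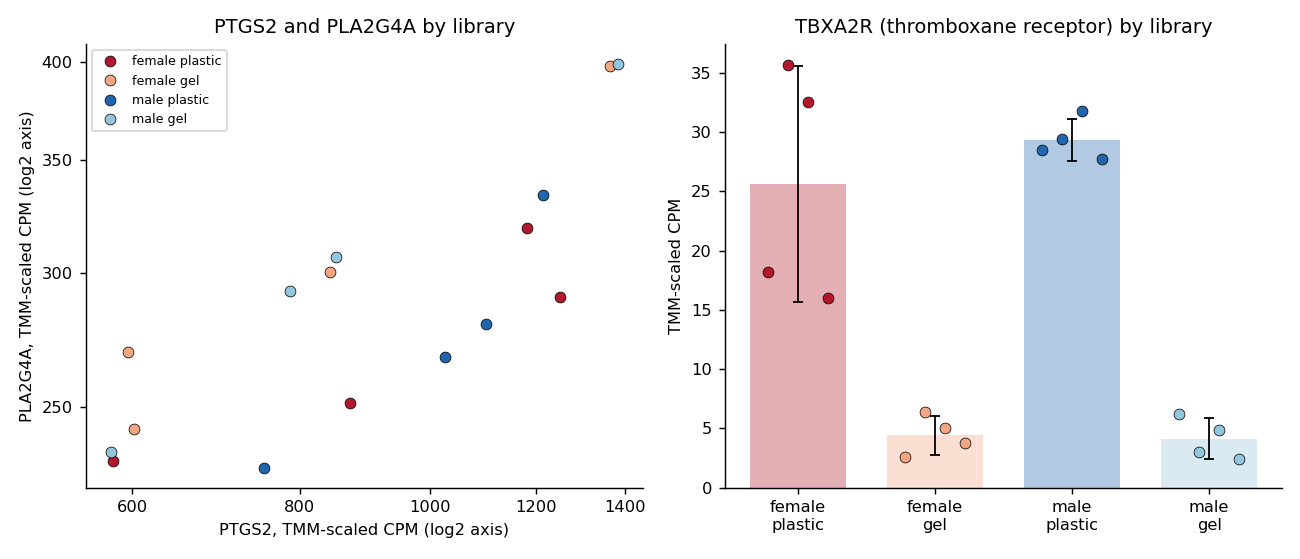
Left, PLA2G4A against PTGS2 in TMM-scaled CPM on log2 axes, 1 point a library. Right, TBXA2R in TMM-scaled CPM from 0, with points for libraries, bars for means and error bars for SD (n = 4 per group). PLA2G4A and PTGS2 go up and down together on both surfaces, and TBXA2R is higher in all 8 plastic libraries than in any gel library.

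Of 11 tested genes of prostaglandin transport and inactivation (15 listed), 1 rose and 4 fell in female cells. In male cells 2 rose and 4 fell, and the medians were -0.70 and -0.60. Among all tested genes, 12.7% rose and 11.3% fell in female cells, with 12.9% each in male cells. ABCC4, a pump that exports prostaglandin E, had 3.42, 3.37, 3.34 and 3.71 CPM in female plastic 1 to 4, against 14.3, 9.69, 8.76 and 13.04 CPM in female gel 1 to 4. In male cells it had 2.90, 3.28, 3.11 and 2.92 CPM on plastic 1 to 4, against 10.2, 13.05, 9.24 and 10.5 CPM on gel 1 to 4. ABCC4 fell, with log2 changes of -1.72 in female cells (SE 0.17, edgeR adjusted p = 2.44e-06) and -1.82 in male cells (SE 0.17, edgeR adjusted p = 1.47e-06). The ketosteroid reductase AKR1C1, of a family of close copies among which reads may be split, changed by -4.10 (SE 0.60) and -3.75 (SE 0.62). The carbonyl reductase CBR3 changed by -1.28 and -1.30 (SE 0.28 each). The carrier SLCO3A1 rose in both sexes, by 0.58 in female and 0.55 in male cells. The second male rise, that of ZADH2, was lost without male gel 2 or 4 or any male plastic library, without female 1, female 4 and male 4, in a fit of the male libraries alone and without a filter on low counts (1 gene rose). The uptake carrier SLCO2A1 had no call (-0.86 in female cells, edgeR adjusted p = 0.0925, and -0.92 in male cells, 0.0771).

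Of 7 tested genes of the leukotriene branch (13 listed), 2 rose and 1 fell in each sex. Among all tested genes, 12.7% rose and 11.3% fell in female cells, with 12.9% each in male cells. ALOX12, a lipoxygenase that competes for arachidonate, rose by 1.16 in female and by 1.11 in male cells (SE 0.15 each), and the glutathione transferase MGST3 rose by 0.73 and by 1.13 (SE 0.18 each). The female fall, that of the receptor CYSLTR2, was lost without female plastic 1 or 4 (0 fell), without female gel 4 or female plastic 3, without female 1, female 4 and male 4 (0 fell), and by limma-voom. The count fallen was 2 in female cells without male gel 2 or female gel 1, and 2 in each sex with the replicate number as a block or in fits of 1 sex alone. It was 2 in male cells without female 1, female 4 and male 4. In female cells the share of all tested genes called either way was 30.2% without male gel 2 and 20.5% without female gel 1. With the block that share was 27.6% in female and 29.7% in male cells.

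Of 17 tested genes that induce or regulate PTGS2 (20 listed), 1 rose and 8 fell in female cells. In male cells 2 rose and 7 fell, and the medians were -0.51 and -0.45. Among all tested genes, 12.7% rose and 11.3% fell in female cells, with 12.9% each in male cells. NFKBIA, the feedback inhibitor that NF-kB induces, changed by -2.60 in female and by -2.58 in male cells (SE 0.16 each). CEBPD, a transcription factor of the acute phase, changed by -2.54 and -2.40 (SE 0.14 each), and the pattern receptor TLR2 by -2.34 and -2.17 (SE 0.29 each). The interleukin receptor IL1R1 changed by -1.04 and -1.30 (SE 0.16 each). CAV1, a scaffold of membrane pits, rose by 0.90 and by 0.59 (SE 0.14 each). The second male rise, that of ELAVL1, was lost when any single male library other than male gel 4 was left out (1 rose). It was lost, too, in separate fits with the replicate number as a block, without a filter on low counts or of the male libraries alone. In female cells 2 rose by DESeq2 and without male gel 2 or female plastic 1. The share of all tested genes called either way was then 27.1%, 30.2% and 22.2%. IL1B had 7 reads and TNF 4 reads over all libraries.

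Of 25 tested genes of cyclic AMP signalling and response (30 listed), 3 rose and 8 fell in female cells. In male cells 5 rose and 6 fell, and the medians were -0.09 and -0.03. Among all tested genes, 12.7% rose and 11.3% fell in female cells, with 12.9% each in male cells. The phosphodiesterases PDE4B and PDE7B, which break down cyclic AMP, changed by -2.38 (SE 0.34) and -2.37 (SE 0.23) in female and by -3.15 (SE 0.35) and -2.57 (SE 0.23) in male cells. The nuclear receptor NR4A2, a gene that cyclic AMP induces, changed by -2.72 and -2.77 (SE 0.36 each). PKIG, an inhibitor of protein kinase A, rose by 2.22 and by 2.41 (SE 0.34 each), and the stress factor ATF3 by 1.45 (SE 0.21) and by 1.56 (SE 0.22). ADCY6, an adenylyl cyclase that makes cyclic AMP, rose by 0.44 in female and 0.74 in male cells. The female call of ADCY6 was lost without female gel 2 (0.39), female plastic 2 (0.42) or female plastic 3 (0.36). It was also lost without female 1, female 4 and male 4, where the change was 0.64. In female cells 5 fell without female gel 1, without female plastic 2 or without female 1, female 4 and male 4, and 5 rose without female gel 4 or with the replicate number as a block. The share of all tested genes called either way was 20.5%, 19.8% and 13.4% in the first fits, and 19.7% and 27.6% in the last.

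**Figure D5:**
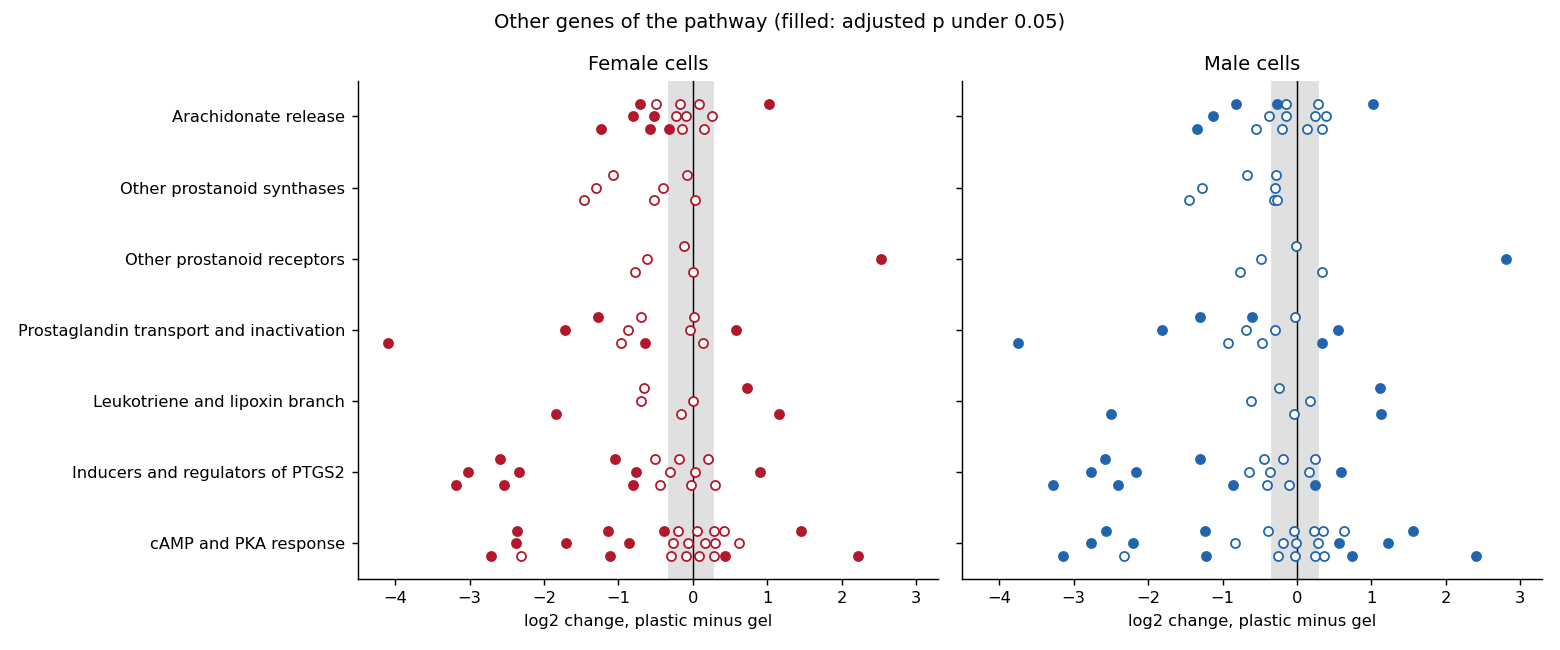
Log2 change of plastic against gel for the tested genes of 7 pathway lists, in female (left) and male (right) cells. Each point is a gene, filled points were called, and the grey band spans the middle 50% of all tested genes. The rightmost point among the other receptors is TBXA2R, and the leftmost in transport and inactivation is AKR1C1.

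For each gene with a mean of at least 5 CPM, the tested genes with the most similar pattern were found by Pearson correlation of log2 CPM over the 16 libraries. The search left out tested genes named LOC with a number. The genes given are the top of the rest of the 14530 tested genes, so no p is given. Libraries of 1 surface share its effect, while those of the same sex and number may share an animal. For PTGS1 the closest genes were UGT1A6 (r = 0.988), SRXN1 (r = 0.983) and PTGES (r = 0.983). For PTGES they were ANGPTL4 (r = 0.984), PTGS1 and SQSTM1 (r = 0.981). For PTGFR they were VCAN (r = 0.966), TLR2 (r = 0.965) and FZD1 (r = 0.96), and for PTGIR SIRPA (r = 0.97), IL4R (r = 0.965) and FTL (r = 0.963). Since PTGS1, PTGES, PTGFR and PTGIR differ between the surfaces, these r values include that difference. PTGS2 was most like MRPS22 (r = 0.883), PTGER2 most like FGF7 (r = 0.92) and PTGIS most like RAB11FIP1 (r = 0.778).

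With the 4 group means taken out, the gene most like PTGS2 among those searched was PLA2G4A, the phospholipase upstream of it (r = 0.949, Spearman rho = 0.941, n = 16 libraries). The correlation was 0.885 over the 8 plastic and 0.985 over the 8 gel libraries, 0.949 without the 2 libraries farthest from the PTGS2 median, and 0.944 over the 8 means per sex and number. PLA2G4A had 232, 251, 290 and 319 CPM in female plastic 1 to 4 and 269, 243, 300.3 and 398 CPM in female gel 1 to 4. It had 333, 230, 267 and 280 CPM in male plastic 1 to 4 and 293, 306, 235 and 399 CPM in male gel 1 to 4. The highest libraries, female gel 4 and male gel 4, were those highest in PTGS2. The genes are neighbours: the annotated PLA2G4A locus (chromosome 9, 127853581 to 128164825) overlaps that of PTGS2 over 5286 bases. Reads of PTGS2 transcripts in the PLA2G4A count, or reads lost from both, were not tested, as the strand and overlap settings of the counting are not given in the sources used here. PLA2G4A reads per 100 PTGS2 reads were 23.2 to 40.0 in female plastic, 29.2 to 45.2 in female gel, 25.4 to 30.6 in male plastic and 28.9 to 40.6 in male gel. With the group means taken out, the slope of log2 PLA2G4A on log2 PTGS2 was 0.52. The next genes were SELENOS on chromosome 1 (r = 0.931) and PAPSS1 on chromosome 8 (r = 0.911). For the other genes, the closest by the same measure were MYO19 for PTGS1 (r = 0.917), MEMO1 for PTGES (r = 0.93) and RAB11FIP1 for PTGIS (r = 0.792). They were TRAK1 for PTGER2 (r = 0.918), TLR7 for PTGFR (r = 0.899) and NHSL2 for PTGIR (r = 0.891). TLR7 and NHSL2 were sparse, with group means of 0.232 to 0.520 CPM and 0.344 to 1.59 CPM.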

How the data were processed

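For 16 polyA RNA libraries the authors deposited 1 table of unnormalised read counts by gene. Per the labels' protocols, RNA came from an RNeasy Micro kit and libraries from a KAPA HyperPrep kit. Per the submitters' processing notes the tools were FastQC 0.11.5, Trimmomatic 0.36, HISAT2 2.1.0, SAMtools 1.3.1 and featureCounts with Sscrofa11.1. Strand and overlap settings are not given in the sources used here. The table's 24 rows with numbers for names (0.169% of counts) were left out. Loci came from RefSeq on the same build, and no sequences were used.

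Genes passing filterByExpr (14530) were tested with edgeR (version 4.0.16, under R 4.3.3), using TMM factors of 0.896 to 1.12 and 1 mean for each of the 4 groups. Intervals cover 95%, and floors and intervals cover counting error or spread between libraries only. Alternatives used RLE factors, DESeq2 1.42.0, limma-voom 3.58.1, other filters, fewer libraries and a replicate block. The fit without female 1, female 4 and male 4 kept only numbers 2 and 3 in the female groups and 1 to 3 in the male groups. The plastic and gel libraries sharing a sex and a number deviated together from their group means (r 0.126 to 0.489, above 0.1 in all 8 pairs). Among libraries of its sex on the other surface, each of the 16 correlated best with that of its own number. The numbers were therefore taken to pair the libraries in the replicate block and in the exchange within pairs. The main edgeR test did not use this pairing. No library was a copy of another (chi-square per degree of freedom 9.93 to 81.9 over 24 pairs). The 10 genes and all lists were chosen with earlier results of these data known. Named were all 10 genes, up to 3 called genes per direction of each list by smallest adjusted p, and the genes of most similar pattern (at most 3 a gene and measure). Uncalled list genes named beside them were chosen after their values were seen. Figures were drawn with matplotlib 3.10.9.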

Additional observations from a re-analysis of the deposited data

Results flagged for a closer look

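PTGES was 27.7 CPM in female plastic 1, against 15.9 to 17.8 CPM in the other 3 female plastic libraries, a gap that is large for the range of the group (Dixon's ratio 0.838, critical value 0.829). PTGIR was 5.55 CPM in the same library, against 2.60 to 2.71 CPM in the other 3 (ratio 0.96). Among 36 groups of 4 libraries examined these were the 2 that stood out, and chance flags about 1 in 20. The endothelial markers summed to 661 CPM in female plastic 1, against 260 to 505 CPM in the other female plastic libraries. Sums of other lists stood out there too. Leukocyte markers had 39.5 CPM against 9.63 to 13.9, and mast cell and platelet markers 281 CPM against 153 to 175. Smooth muscle and pericyte markers were lowest there, with 1679 CPM against 2026 to 3467. The part of any of these markers in the PTGES and PTGIR values was not tested. Without female plastic 1 the female surface change was -1.94 for PTGES (edgeR adjusted p = 2.76e-06) and -2.13 for PTGIR (edgeR adjusted p = 5.64e-05), larger in size than with it.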

How the results depend on the processing

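The calls of PTGS1, PTGES, PTGFR and PTGIR held in each sex under all 24 alternatives run. Over these, log2 changes in female and male cells were -2.48 to -2.32 and -2.24 to -1.88 for PTGS1, -1.94 to -1.65 and -1.77 to -1.52 for PTGES, -2.18 to -1.75 and -2.48 to -2.14 for PTGFR, and -2.13 to -1.69 and -1.73 to -1.35 for PTGIR. The number of the 10 genes called was 4 to 6 in female and 4 to 5 in male cells, the highest values with the replicate block (6 and 5). With the block the share of all tested genes called was 27.6% in female and 29.7% in male cells, against 23.9% and 25.8% without it, and over all alternatives it was 13.4% to 30.2% and 14.9% to 29.7%. The number of the 10 called was 0 in every sex comparison and in the difference of surface changes. PTGIS in female cells was called under 4 of 24 alternatives, PTGER2 in male cells under 6 of 24 and HPGD in female cells under 2 of 22. The cause was not tested. The block changed no other call among the 10 genes. Where the block was used for female against male, it was fitted as a random effect in limma-voom. Among the other pathway genes followed, calls were lost under some alternative for CYSLTR2, ADCY6 and PLA2G12A in female cells and for ZADH2 and ELAVL1 in male cells. In an exact permutation test with exchange within pairs, an alternative chosen after seeing the data, no read ratio went below p = 0.125, the smallest possible. Depth limits PTGER3, HPGD and PTGER4.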

Other observations

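With group means taken out, the prostaglandin F and prostacyclin receptors varied in opposite directions between libraries. Of the 36 pairs among the 9 tested genes this pair, PTGFR and PTGIR, was picked after its value was seen, so no p is given. Pearson's r was -0.83 over 16 libraries (Spearman rho -0.76), -0.86 over the 8 plastic and -0.80 over the 8 gel libraries. It was -0.71 without the 2 libraries farthest from the PTGFR median, and -0.90 over the 8 means per sex and number. Spearman's rho was weaker, at -0.71 over the plastic and -0.57 over the gel libraries, and -0.69 over the 8 means. Over the same libraries PTGES followed PTGS1 (r = 0.774, rho = 0.685) and PTGIR followed PTGES (r = 0.709, rho = 0.644). PTGES and PTGIR had r = 0.496 without the 2 libraries farthest from the PTGES median, and rho = 0.262 over the 8 plastic libraries. PTGS1 and PTGES had r = 0.641 without the 2 libraries farthest from the PTGS1 median. If libraries of the same sex and number share an animal, these are 8 independent cultures at most. Endothelial marker sums ran opposite to PTGFR in part. Female gel 1 and 4 and male gel 4 had 310, 341 and 303 CPM of endothelial markers. These libraries had the lowest PTGFR of their groups (14.1, 17.4 and 16.2 CPM). The remaining gel libraries had endothelial sums of 192 to 236 CPM. Female plastic 1, with 661 CPM, had the lowest PTGFR (3.15 CPM) and the highest PTGIR (5.55 CPM) on plastic, while female plastic 4, with 505 CPM, had 6.29 CPM of PTGFR and 2.70 CPM of PTGIR. The part of these markers in the pattern was not tested.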
